A study of Mus musculus with 16 samples.

Results

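Regulatory T cells of Sh2d2a knockout mice were compared with those of wild-type mice before any stimulation. The genotype difference was taken from 4 libraries of 16 in the series, chosen by their titles. They were 2 from knockout cells (KO) and 2 from wild-type cells (WT). All were at 0 h and are called WT1, WT2, KO1 and KO2 by the replicate number of their label. Of the 27802 features in the deposited tables, 11315 had a normalised count of 10 or more in at least 2 of these 4 libraries and were tested. The cells were CD4+CD25high regulatory T cells sorted from spleen, and the label of every library names the strain C57BL/6. The 12 other libraries came from the same genotypes after 2, 8 or 24 h on plates coated with 1 µg/ml antibody to CD3. There were 2 of each genotype at each time. Their differences served here as separate material, but the variance behind the p-values at 0 h was estimated from all 16 libraries. The labels call the mice matched for sex and age, and give neither ages, the number of mice behind a library, nor how the knockout allele was made. Nothing says that WT1 and WT2, or KO1 and KO2, came from separate mice. The p-values below therefore speak of the variation among the 16 libraries, part or all of which may be technical.

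Regulatory T cells restrain other immune cells and are kept apart from conventional CD4 T cells by the transcription factor Foxp3 and a high surface level of CD25, the alpha chain of the interleukin-2 receptor. Sh2d2a encodes TSAd, an adaptor protein with an SH2 domain that binds the T-cell kinase Lck, which starts signalling from the T-cell receptor. Cells at 0 h had met no stimulating antibody in the experiment, so the question here is which RNA levels already differed between the genotypes at that point.

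The features have no usable gene names. In the 4 libraries of 0 h, the rows listed as Cd4, Ptprc, Gapdh, Rplp0 and Ppia were without a read, although Cd4 was a marker of the sort and the others are used by all leukocytes or all cells. Of 21 listed genes that every cell, every T cell or regulatory T cells use, 11 had a mean normalised count under 10. The row listed as Sh2d2a was at 0 and 0 in WT and at 1.1 and 4.22 in KO, so it checks nothing about the genotype. Of 11 listed markers of other cell types, 5 had a mean of 10 or more, among them Cd79a of B cells at 1052, and neither identity nor purity of the cells can be read from such rows. What follows is therefore about measured features, marked H1 to H6 (higher in KO) and L1 to L14 (lower in KO) in the order of their log2 difference. No gene or pathway is read from them, and in bulk RNA fewer cells of a type and less RNA per cell cannot be told apart.

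Depth differed between the libraries. The 4 libraries held 8623647 and 2726097 reads in WT and 4041719 and 3141553 reads in KO, and 16996, 14856, 15692 and 15357 features had a read. Thinned to the 2726097 reads of the shallowest, the libraries had 15175 and 14856 such features in WT and 15090 and 15142 in KO, so at equal depth the KO libraries fell between the WT libraries. A feature without a read could hold up to 3 reads, which is 0.35 to 1.1 CPM here, for counting error only. The 100 features with most reads took 23.2% and 22.1% of the reads in WT and 24.2% and 24.4% in KO.

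Before stimulation the genotypes were close to each other across the whole set of features. Spearman correlations of the tested features were 0.976 within the WT pair, 0.977 within the KO pair and 0.972 to 0.975 between the genotypes, given as a description over features of the same libraries. The median absolute log2 difference between KO and WT means was 0.18 over all tested features, and the median signed difference was -0.01. Among features with a mean normalised count of 300 to 1000, single libraries differed by a median of 0.13 on the log2 scale within either genotype and by 0.14 to 0.16 between them. Among those at 1000 or more the values were 0.11 and 0.1 within WT and KO and 0.12 to 0.13 between genotypes. Under 20 the spread within the pairs, 0.54 and 0.56, was as large as the 0.52 to 0.63 between genotypes.

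**Figure D1:**
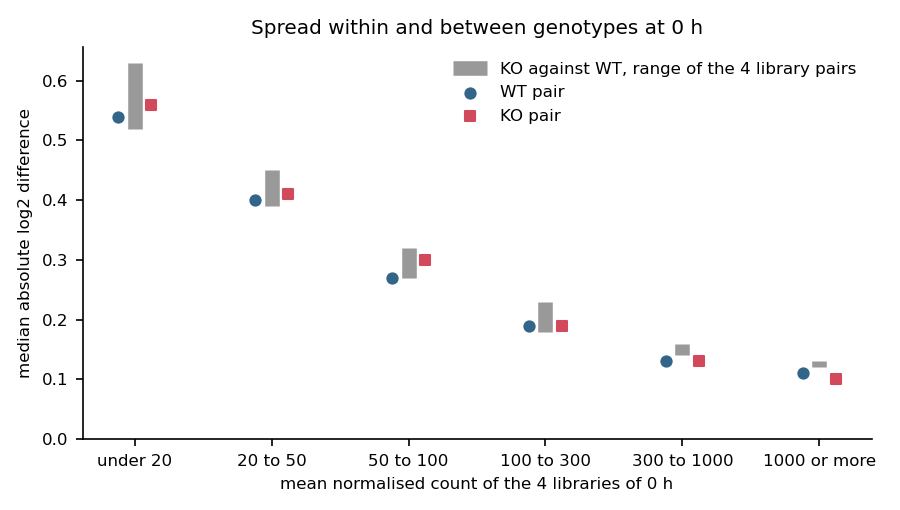
Median absolute log2 difference (y axis) between libraries of 0 h for features grouped by mean normalised count (x axis): points are the pair within WT or within KO, bars span the 4 pairs of a KO with a WT library. The bars overlap the points at low counts and lie just above them from 300 upwards, at 0.14 to 0.16 against 0.13.

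The test called 20 features, 6 higher and 14 lower in KO. That is 0.177% of the features tested, 0.053% higher and 0.124% lower (limma, Benjamini-Hochberg adjusted p under 0.05). At an unadjusted p under 0.05 there were 1069 features, or 9.45%. The changes were moderate in size: KO means were 1.63 to 3.43 times the WT means for the higher features, and WT means were 1.44 to 2.92 times the KO means for the lower ones. Of the 20, 4 higher and 4 lower features differed at least 2-fold. Both KO libraries lay outside both WT libraries for all 20, where 19.3% of all tested features lay wholly higher and 20.8% wholly lower in KO. The 20 were picked in these same libraries, so this was close to given and is not separate support. DESeq2 on the recovered reads called 40 features, a fit without a low-count filter 12, and limma with neither trend nor robust prior 2. Lower features were 70% of the 20 calls, but 44.4% of 18 with KO1 left out, 54.5% of 22 with KO2 left out and 58.8% of 17 with WT1 left out. With TMM scaling 65% of 20 and with quantile scaling 61.9% of 21 were lower.

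**Figure D2:**
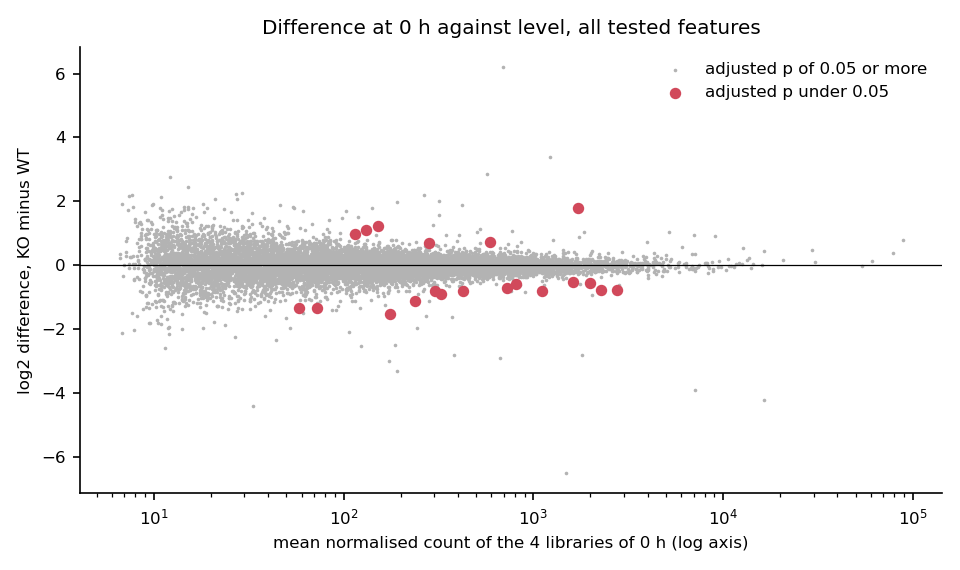
Log2 difference KO minus WT at 0 h (y axis) against the mean normalised count of the 4 libraries (x axis, log scale) for 11315 features; large points passed the test. The 20 features that passed have means of 58.5 or more and most sit at the edge of the cloud, while several larger differences did not pass.

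The clearest of the lower features was L1, in the row listed as ENSMUSG00000028837. Its normalised counts were 247 and 276 in the WT libraries and 91.6 and 87.3 in the KO libraries. The KO libraries lay close together at 34.2% of the WT mean, a log2 difference of -1.53 ± 0.2 (SE; limma adjusted p = 9.502e-05). Next in size were features with fewer reads. L2, in the row listed as ENSMUSG00000022419, had 88.0 and 80.8 in WT and 24.3 and 40.8 in KO, and the KO values stood on 22 and 29 reads. L3 had 112 and 97.0 in WT and 44.1 and 35.2 in KO. For both, the gap between the genotypes exceeded the distance within either pair, and the difference was -1.36 ± 0.29 (SE; limma adjusted p = 0.03504). L4 had 341 and 315 in WT against 135 and 162 in KO, at -1.14 ± 0.18 (SE; limma adjusted p = 0.001623). L1 still passed when any one of the 16 libraries was dropped. The call of L4 was lost without KO1 (limma adjusted p = 0.0546). L2 and L3 lost theirs without KO1 (0.336 and 0.0756), without WT1 (0.154 and 0.158), without WT2 (0.137 and 0.118), or without replicate 2 of WT at 8 h (0.0502 for both). L3 also lost it without KO2 (limma adjusted p = 0.256).

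Among the 10 other lower features the KO mean was 53.2% to 69.3% of the WT mean. L6 had 1468 and 1379 in WT and 830 and 782 in KO, and L10 had 3758 and 3210 in WT and 1991 and 2083 in KO. In both, the gap between the genotypes was larger than the distance within either pair, and the log2 differences were -0.82 ± 0.12 (SE; limma adjusted p = 0.000269) and -0.77 ± 0.1 (SE; 0.0001128). Neither lost its call when any single library was left out. L9 had 2909 and 2840 in WT and 1488 and 1875 in KO. L5 had 446 and 404 in WT and 248 and 204 in KO, and L7 had 596 and 495 in WT and 294 and 325 in KO. In each of these the KO values were set clearly below the WT values, with log2 differences of -0.78, -0.91 and -0.81 (limma adjusted p of 0.001686 to 0.02267). L8 had 362 and 406 in WT and 196 and 244 in KO, and L11 had 860 and 952 in WT and 494 and 607 in KO. L12 had 897 and 1057 in WT and 575 and 725 in KO. L13 had 2488 and 2250 in WT and 1528 and 1692 in KO, and L14 had 2046 and 1789 in WT and 1364 and 1292 in KO. These last 5 had log2 differences of -0.8 to -0.53 (limma adjusted p of 0.003801 to 0.04182). Dropping KO1 took the calls of L7, L8, L9, L11, L12, L13 and L14, where the limma adjusted p became 0.0668 to 0.427. Dropping KO2 took those of L5, L7 and L14 (0.0779 to 0.179), and dropping WT1 those of L5, L7, L8, L12, L13 and L14 (0.0557 to 0.17). L8, L11 and L12 lost theirs without WT2 (0.0909 to 0.415). L12 was lost also without either replicate of WT at 8 h (0.0584 and 0.061) or replicate 2 of KO at 8 h (0.0531), by limma.

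**Figure D3:**
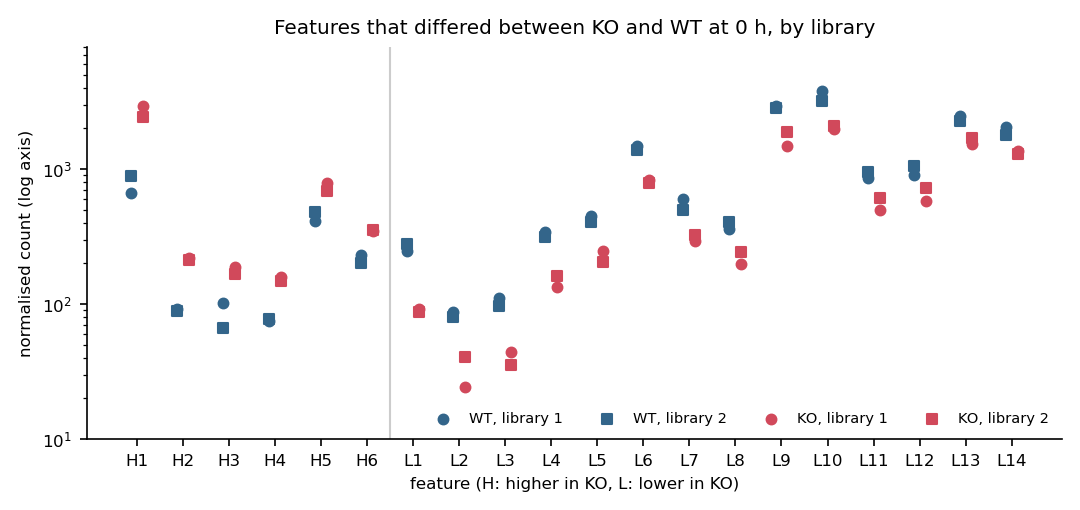
Normalised count (y axis, log scale) of each of the 20 features that passed the test at 0 h, one point per library, WT and KO side by side. In every feature the KO points lie on one side of the WT points, from H1 at 665 and 892 in WT against 2919 and 2417 in KO down to L14.

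Fewer features were higher in KO, and one of them stood well apart from the rest. H1, in the row listed as ENSMUSG00000042073, had 665 and 892 in WT and 2919 and 2417 in KO. Its KO mean was 3.43 times the WT mean, and the log2 difference was 1.78 ± 0.19 (SE; limma adjusted p = 0.001623). Dropping any single library left it past the threshold. H2, in the row listed as ENSMUSG00000028433, had 91.1 and 88.9 in WT and 217 and 211 in KO, with pairs that hardly differed within themselves, at 1.23 ± 0.22 (SE; limma adjusted p = 0.005012). H5 had 410 and 483 in WT and 785 and 684 in KO, a smaller rise of 0.72 ± 0.14 (SE; 0.01313). Without KO1 the calls of H2 and H5 were lost (limma adjusted p = 0.0756 and 0.224), and H5 was lost also without WT1 (0.158).

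The remaining 3 higher features were close to the threshold. H3 had 102 and 66.3 in WT and 188 and 168 in KO, H4 had 74.7 and 77.6 against 159 and 148, and H6 had 230 and 200 against 350 and 352. H4 and H6 were tight within the pairs, whereas H3 was not tight in WT. Their log2 differences were 1.09 ± 0.24, 0.99 ± 0.21 and 0.7 ± 0.15 (SE; limma adjusted p = 0.03626 for each). None of the 3 passed without KO1 (0.187 to 0.251), without KO2 (0.13 to 0.205) or without WT2 (0.146 to 0.496). H4 and H6 also failed without WT1 (0.144 and 0.0661), and H3 and H6 without replicate 2 of WT at 8 h (0.0518 and 0.0502), by limma.

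The threshold itself cut through a run of like features. The first higher feature outside it had 8.7 and 9.7 in WT and 43.0 and 47.9 in KO, and the first lower one had 87.0 and 97.0 in WT and 37.5 and 46.4 in KO. Their limma adjusted p were 0.06336 and 0.05973, next to 0.03626 and 0.04182 for the last features inside. The 6 nearest features outside, 3 in each direction, had adjusted p of 0.05973 to 0.07299. A passing feature had a mean normalised count of at least 58.5 over the 4 libraries. None of the 2952 tested features under 50 passed, against 0.732% of those at 1000 or more.

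Size alone did not decide a call. Of 331 tested features with an absolute log2 difference of 1 or more, 174 higher and 157 lower in KO, 7 were called, and 254 had a mean under 50. A few features stood far outside the cloud and were singled out after their values were seen. The largest rise had 18.4 and 14.5 in WT and 1138 and 1595 in KO at 0 h, 82.9 times the WT mean. It did not pass (limma adjusted p = 0.1519), and its within-group SD on the log2 scale was 1.16. In the stimulated WT libraries it stood between 466 and 1191 in 5 of 6 and at 18.3 in the other, so low values were not a constant trait of WT. In the stimulated KO libraries it stood at 809 to 1319 in all 6. A feature at 62.4 and 67.9 in WT was at 0 and 2.8 in KO at 0 h, yet it reached 60.3 in stimulated KO cells and was at 0 in 1 of those libraries (limma adjusted p at 0 h = 0.2613). The largest fall by mean rested on WT1 alone, with 5936 there against 12.9, 1.1 and 1.4. No feature had a value of 10 or more in both libraries of one genotype and no read in either library of the other. The rule is strict, since the feature at 0 and 2.8 in KO failed it on 2 reads in KO2. It therefore does not settle whether a transcript was lost altogether in KO.

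The 20 features had a median within-group SD of 0.16 on the log2 scale over the 8 groups, against 0.17 for the 8048 tested features with a mean of at least 58.5 and 0.21 for all tested features. In WT1, 10 features exceeded each of the other 3 libraries of 0 h at least 8-fold and took 1.73% of its reads. There were 5 such features in KO2 (0.17% of its reads) and 1 each in WT2 and KO1. None of these features was among the 20, which the step within their own pair made unlikely from the start.

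The same features were then read in the 12 libraries of stimulated cells, none of which entered the difference at 0 h. Averaged over 2, 8 and 24 h, 16 of the 20 passed with the same sign: 13 of the 14 lower and 3 of the 6 higher features. Over all tested features 4.39% passed as lower and 1.96% as higher in that average, 6.35% in all. All 20 kept their sign in the average, where 52% of tested features were below and 48% above 0. The variance of each feature came from all 16 libraries in both comparisons and was drawn towards that of features of like level. The prior behind this had a median of 23.6 degrees of freedom, beside 8 residual ones. Libraries of different times may share mice. When the 0 h libraries and the 12 others were fitted apart, 30 features passed at 0 h. Of these 30, 20 passed with the same sign in the others. In that fit of the others 680 of the 11315 tested features passed, 200 higher and 480 lower in KO. The 20 were not the same 20 as above, since the 30 held 15 of the features called in the main fit. H3, H4, H6, L2 and L3 lost their call in the fit of the 0 h libraries alone (limma adjusted p of 0.0542 to 0.103). The count of 16 fell when WT1 or KO1 was dropped, but the features called at 0 h were then partly other ones. The later average itself had 719 calls, but 419 without replicate 1 of WT at 24 h and 478 without replicate 1 of KO at 2 h.

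The lower features other than L12 stayed lower under stimulation. L12 had 743 and 756 in WT against 775 and 781 in KO after 8 h, so KO lay wholly above WT. Its log2 difference was 0.05 then and 0.15 after 24 h. The median log2 differences of all 14 were -0.8, -0.78, -0.5 and -0.83 in time order. The median for all tested features was -0.01 at 0 h and in the later average. KO libraries were wholly below WT libraries in 14 of 14 features after 2 h, against 18.6% of tested features, and in 13 of 14 after 8 h (21.8%) and 24 h (25.9%). With the 4 times together, no KO value reached a WT value in 12 of the 14, which was so for 0.672% of tested features. That share is not a like measure, because the 14 were picked in the 0 h libraries. In the 12 libraries of stimulated cells alone it was also so in 12 of the 14. The share of all tested features was not computed there. For L1, the KO values stayed between 78.7 and 93.0 over the 4 times, and its WT values between 230 and 341. Its later difference was -1.77 ± 0.11 (SE; limma adjusted p = 2.547e-12). L4 had the same difference before and after, -1.14 at 0 h and -1.14 ± 0.11 later (SE; limma adjusted p = 4.184e-09). L5 had WT means of 425 at 0 h and then 555, 573 and 519, while its KO means were 226, 202, 224 and 207. Its later difference was -1.38 ± 0.09 (SE; limma adjusted p = 2.547e-12), and the test of that change against 0 h did not pass (adjusted p = 0.5878). L2 was the lower feature whose KO means climbed with time, from 32.5 at 0 h to 43.3, 55.9 and 77.9, beside WT means of 84.4, 78.6, 86.6 and 128. The change of its difference, 0.65 ± 0.33 (SE), did not pass (limma adjusted p = 0.7476).

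**Figure D4:**
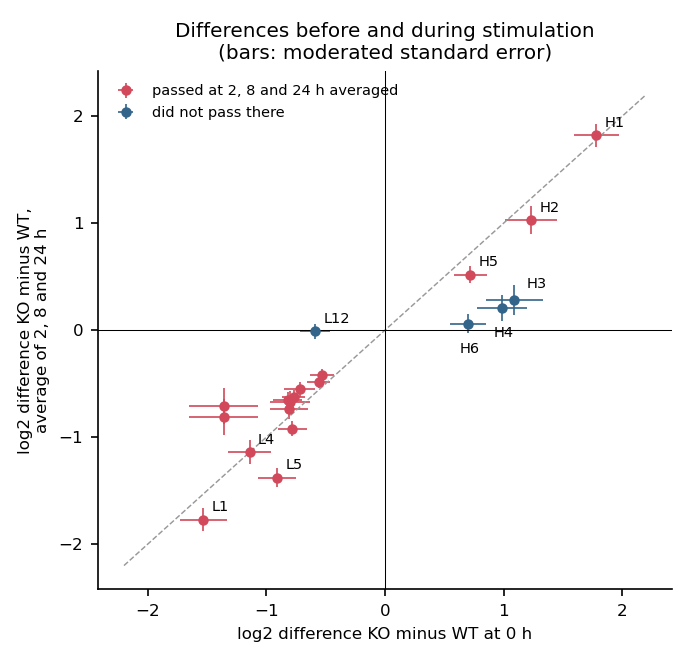
Log2 difference KO minus WT at 0 h (x axis) against the average difference at 2, 8 and 24 h (y axis) for the 20 features, with moderated standard errors as bars and equality as the dashed line. All 20 lie on the side of 0 that they had at 0 h, and H3, H4, H6 and L12 lie near 0 on the y axis.

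The higher features divided. KO libraries were wholly above WT libraries in 5 of 6 after 2 h (16.9% of tested features), in 4 after 8 h (19.7%) and in 4 after 24 h (21%). H1 kept its distance, with KO values of 2251 to 3520 and WT values of 595 to 892 over all 4 times and a later difference of 1.82 ± 0.11 (SE; limma adjusted p = 5.044e-07). H2 did the same at 194 to 249 in KO and 75.6 to 139 in WT, with a later difference of 1.03 ± 0.13 (SE; limma adjusted p = 1.301e-06). In these 2 features no WT value of any time reached a KO value, as in 0.221% of tested features. Those were not picked at 0 h as these 2 were, so the share is not a like measure. H5 remained higher in KO at 0.52 ± 0.08 (SE; limma adjusted p = 4.81e-05), with 1 KO value of 566 below the highest WT value of 576.

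H3, H4 and H6 were higher in KO at 0 h and did not pass in the later average, where their differences were 0.28, 0.21 and 0.06 (limma adjusted p of 0.2578 to 0.7816). In H4 the WT mean was 76.2 at 0 h and 112 at 2, 8 and 24 h, while the KO mean was 153, 140, 134 and 116. In H6 the WT mean was 215, 228, 273 and 309 and the KO mean 351, 282, 271 and 285, and the libraries of both genotypes overlapped after 8 h and after 24 h. The one lower feature of this kind was L12, with WT means of 977, 868, 750 and 634 and KO means of 650, 735, 778 and 703. Its later difference was -0.01 ± 0.07 (SE; limma adjusted p = 0.9512). That these 4 differences were smaller in stimulated cells was tested as an interaction and was not established: the changes against 0 h were -0.81, -0.78, -0.64 and 0.58, with limma adjusted p of 0.1732 to 0.4557. That test passed for 0.124% of all tested features, 0.115% with a lower and 0.00884% with a higher KO-WT difference under stimulation, and for none of the 20. At an unadjusted p under 0.05 there were 5 of the 20 and 6.83% of all. Picking features by their difference at 0 h enlarges the values there, so a smaller later value is not read as a change.

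**Figure D5:**
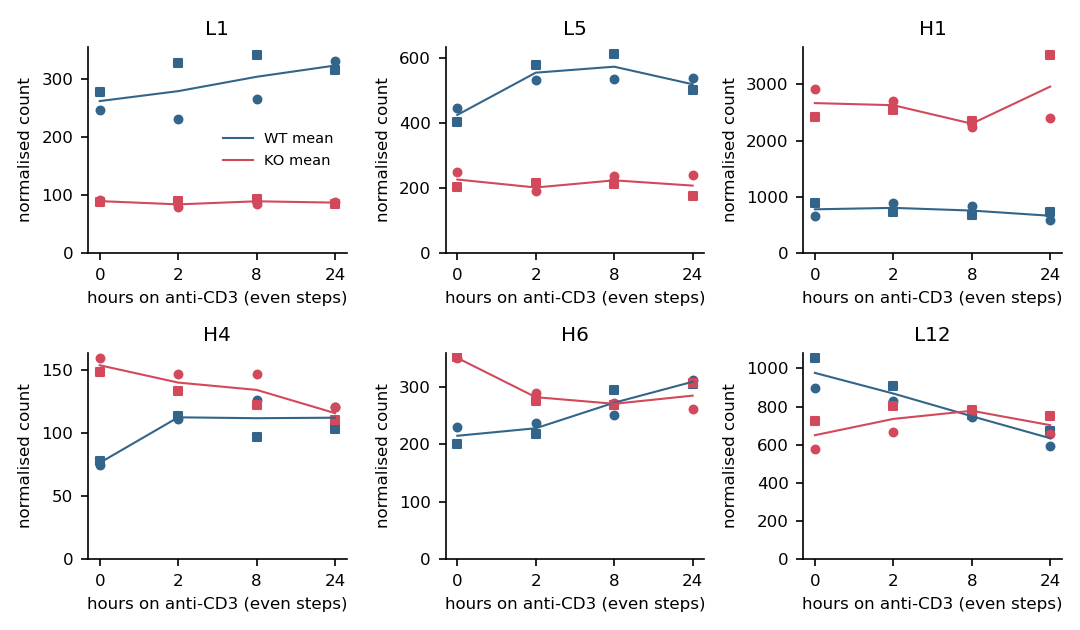
Normalised count (y axis, from 0) of 6 features at 0, 2, 8 and 24 h of anti-CD3 (x axis, even steps), with points for libraries and lines through the group means. L1, L5 and H1 keep WT and KO apart at all times, whereas points of WT and KO overlap at one or more later times in H4, H6 and L12.

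The wider set with an unadjusted p under 0.05 at 0 h pointed the same way in the stimulated cells, at a smaller size. Of its 596 lower features 79.9% were lower in the later average, and of its 473 higher ones 71.2% were higher, against 52% and 48% of all tested features. Their median log2 differences went from -0.52 at 0 h to -0.16 later and from 0.56 to 0.13. In the later average 25.2% of the lower and 12.9% of the higher ones passed with the same sign, beside 4.39% and 1.96% of all tested features. Both p-values of a feature used the same variance estimate, so a feature with a low estimate passes more readily in both. These shares were not computed from separate fits.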

How the data were processed

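RNA of sorted regulatory T cells was sequenced from polyadenylated transcripts. The submitters' processing notes name GRCm38.p6, STAR 2.6.0a, HTSeq and DESeq2. Strand and counting settings are not given in the sources used. The authors deposited, under a heading that says count, a normalised signal (whole reads over 1 factor per library). Whole reads were recovered from it in 100% of cases, to within 0.01 reads. A duplicated row was removed. Of 27802 identifiers 27789 matched a symbol, but values under known genes show that the pairing cannot be used, so no sequence or gene name is given.

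The main test was limma 3.58.1 (R 4.3.3; trended, robust prior) on log2(value + 2), a scale that understates changes of low features, with 8 group means over 16 libraries (8 residual degrees of freedom). Features needed a value of 10 in at least 2 of the 4 libraries of 0 h, and these hold 99.6% of the reads. P-values were adjusted by Benjamini-Hochberg over the 11315 features of each comparison. Within pairs, chi-square over degrees of freedom was 12.0 in WT and 8.24 in KO, so the libraries differed by more than sampling noise. Alternatives were edgeR 4.0.16 and DESeq2 1.42.0 on recovered reads, other scalings, filters, pseudocounts and priors, thinning, a replicate block, and leaving out each library. All called features are described, with identifiers for the 2 largest in each direction. Only the limma fit was also run on simulated counts, and no result of that run is used here. The comparison, the lists and the rules were chosen with earlier results of these data known. Figures were drawn with matplotlib 3.10.9 in Python 3.11.15.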

Additional observations from a re-analysis of the deposited data

Results flagged for a closer look

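The genotype difference in stimulated cells, averaged over 2, 8 and 24 h, differed from that at 0 h for 14 features by the test of the difference itself (limma adjusted p under 0.05, 0.124% of those tested). None of these was among the 20 that passed at 0 h. For 13 of them the KO-WT difference was lower under stimulation, with a median log2 difference of 0.35 at 0 h (-0.07 to 0.87) and of -0.76 later. Before stimulation 12 of the 13 were above 0 and 9 had both KO libraries above both WT libraries (19.3% of all tested features did), though none passed there (lowest limma adjusted p = 0.174). These features were picked by the interaction, which favours values above 0 at 0 h, and no direction at 0 h is read from them. One had 584 and 656 in WT against 842 and 850 in KO at 0 h, with a log2 difference of 0.45 ± 0.12 there (SE) and -0.47 ± 0.07 later. Part of the 14 lost their call when WT1, WT2, KO1 or KO2 was dropped, also where the count itself rose. The count was 25 with WT2 of 0 h dropped and 24 with replicate 2 of WT at 24 h dropped.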

How the results depend on the processing

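All 20 features kept their direction at 0 h under each of 30 other settings, but this was close to given. KO and WT libraries of 0 h did not overlap in any of the 20, so leaving out a library of 0 h could not reverse a sign. Leaving out a library of stimulated cells, or changing the prior or the filter, left the differences at 0 h unchanged. H1 and L1 kept their call under every setting. H1, L1, L6 and L10 kept it without any one library, while 15 of the 20 calls were lost without KO1, 11 without WT1, 8 without WT2 and 7 without KO2. DESeq2 gave 40 features at 0 h, 38 interactions and 25 features shared with the later average. Without a filter the counts were 12 at 0 h, 469 in the later average, 7 interactions and 10 shared. With neither trend nor robust prior they were 2, 334, 0 and 2; for the interactions limma then had 736 at an unadjusted p under 0.05, and edgeR called 16 and DESeq2 38. Leaving out each library gave 16 to 27 at 0 h, 419 to 781 in the later average, 13 to 25 interactions and 9 to 20 shared. Scaling moved the median difference of all features by less than 0.1. Replicate numbers are shared between groups, but deviations from the group means of same-numbered WT and KO libraries correlated at 0.01 at 0 h and at -0.05 to 0.05 over the 4 times, so no pairing of the genotypes was seen. Within a genotype, same-numbered libraries of different times correlated at 0.01 to 0.19 in WT, over 0.1 in 2 of 6 pairs of times, and at 0.01 to 0.04 in KO. With the replicate block the counts were 21, 752, 15 and 16. No feature with a mean under 50 passed, and with all libraries thinned to one depth 16 features passed. The fit of 0 h libraries alone could give no interaction.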

Other observations

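A number of features were high in some libraries and nearly absent in others, and none divided the genotypes completely. By a rule set after the values were seen (a step of at least 8-fold in the ordered values, with 2 or more libraries on each side), 18 features behaved so over the 16 libraries, 12 of them among those tested at 0 h and none called there. In 11 the high libraries came from both genotypes, in 5 from WT only and in 2 from KO only. No 2 of the 18 had the same set of high libraries. At 0 h, 12 of the 18 were high in one library of a pair and low in the other.

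One such feature had 8347 and 8613 in WT and 11399 and 25.3 in KO at 0 h. Over the series it was at 6243 to 13216 in 9 libraries and at 3.4 to 25.3 in 7, and in KO the first library was high and the second low at each of the 4 times. A second had 6421 and 19.4 in WT and 21619 and 21.1 in KO at 0 h and was high in 13 of 16 libraries. Only 1 of the 18 had both libraries of one genotype high and both of the other low at 0 h. This was the feature at 18.4 and 14.5 in WT against 1138 and 1595 in KO. It was high in all 8 KO libraries and in 5 WT libraries at later times. Another was likewise high in all 8 KO libraries and in 4 WT libraries, at 283 to 466. That feature was at 12.4 to 28.9 in the remaining WT libraries. These values were not traced to a cause.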
